A study of Mus musculus with 5 samples.

Results

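The imprinted growth genes are genes of which mammals express mainly the maternal or mainly the paternal copy and which raise or restrain growth before birth. The 10 studied here, Igf2, Igf2r, Grb10, Cdkn1c, Plagl1, Peg3, Zim1, H19, Meg3 and Dlk1, were found by exact gene symbol among 24808 named rows of liver RNA-seq count tables. All 10 symbols matched, 8 members had enough counts for the main test, and 2, Dlk1 and Zim1, did not. None of the 8 passed the test over all genes when givinostat-treated and CCl4-only livers were compared. H19 had the most negative fold change of the 8, and its level varied widely between the CCl4-only livers.

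The tissue was liver of C57BL/6 mice aged 16 weeks that had all received carbon tetrachloride (CCl4), a hepatotoxin that scars the rodent liver when given repeatedly. The CCl4 group held 3 libraries. The CCl4+givinostat group held 2 libraries from mice that also received givinostat, an inhibitor of histone deacetylases, the enzymes that take acetyl groups off histone tails. Untreated liver was not analysed here, so every value below is a comparison within CCl4-treated animals.

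An imprinted gene carries a methylation mark set in the egg or sperm, and cells read that mark to keep 1 parental copy silent. In mouse, H19, Meg3, Cdkn1c, Igf2r and Zim1 are expressed mainly from the maternal copy and Igf2, Dlk1, Peg3 and Plagl1 from the paternal copy, while Grb10 is maternal in most tissues outside the brain. Many of these genes are abundant in fetal liver and are switched down after birth. Read counts per gene do not separate the parental copies, so the values here are total levels and say nothing of which copy was read.

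Total counts per library ran from 18634801 to 21773867, and 1 read was worth 0.0449 to 0.0520 CPM (the depth-scaled read count, with library sizes adjusted by the trimmed mean of M values). On the leading axis of a principal component analysis (38.0% of variance), CCl4 replicate 1 stood away from the other CCl4 libraries, so results that rest on that library are given with and without it. Of 8 hepatocyte markers, all were tested and together they summed to 92714 to 102586 CPM in the CCl4 libraries and to 94774 and 102139.7 CPM with givinostat. The sum is mostly albumin (Alb, 71061 to 78780.1 CPM over the 5 libraries). Cyp2e1, the cytochrome P450 that activates CCl4, was at 859, 1038 and 984 CPM with CCl4 alone and 3039.5 and 1639 CPM with givinostat. Its log2 fold change was 1.28 ± 0.25 (SE; adjusted p by edgeR = 0.210). DESeq2, which called 0.506% of all genes higher, called Cyp2e1 higher (adjusted p = 0.00052). EdgeR without the filter on low counts also called Cyp2e1 higher (adjusted p = 0.0338). The part of this difference in the values below was not tested. In these bulk samples, fewer cells of a type and less RNA per cell cannot be told apart.

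Several members lie in shared imprinted domains (GENCODE M21, GRCm38). Zim1 (chr7:6671269-6696450) and Peg3 (chr7:6703892-6730431) are neighbours, both on the minus strand. H19 (chr7:142575529-142578143), Igf2 (chr7:142650766-142666816) and Cdkn1c (chr7:143458339-143461050) lie on the minus strand at the far end of the same chromosome. Dlk1 (chr12:109452823-109463336) and Meg3 (chr12:109541001-109571726) are neighbours on the plus strand. Grb10 (chr11:11930508-12038683, minus), Igf2r (chr17:12682406-12769664, minus) and Plagl1 (chr10:13060504-13131694, plus) each lie in a domain of their own.

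H19, Igf2 and Meg3 each host a microRNA gene, and the mature arms are shown because the tables list these genes as rows of their own. Sequences are from RefSeq on GRCm38.p6, 5′ to 3′, with the seed (bases 2 to 8) in capitals. Mir675, on the minus strand within an H19 exon, gives miR-675-5p (chr7:142577112-142577133) and miR-675-3p (chr7:142577078-142577099).
mmu-miR-675-5p: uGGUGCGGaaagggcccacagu
mmu-miR-675-3p: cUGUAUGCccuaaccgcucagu
Mir483, in an intron of Igf2 on the minus strand, gives miR-483-5p (chr7:142654968-142654989) and miR-483-3p (chr7:142654932-142654952).
mmu-miR-483-5p: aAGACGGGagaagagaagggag
mmu-miR-483-3p: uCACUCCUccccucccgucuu
Mir770, within a Meg3 exon on the plus strand, gives miR-770-5p (chr12:109563710-109563731) and miR-770-3p (chr12:109563744-109563765).
mmu-miR-770-5p: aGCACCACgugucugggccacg
mmu-miR-770-3p: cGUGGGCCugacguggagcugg
The 6 arms have 6 distinct seeds. The Mir675, Mir483 and Mir770 rows, and that of Mir1906-1, which also lies within Meg3, held 0 counts in each of the 5 libraries. TruSeq RNA libraries are not made to capture mature microRNAs, so these zeros describe the gene rows and not the arms.

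Per length, Igf2r was the most abundant member in both groups. In TPM (counts per kilobase of exon, scaled to the same sum in each library), Igf2r averaged 17.3 ± 5.67 (SD, n = 3) with CCl4 and 13.3 ± 2.22 (SD, n = 2) with givinostat. Cdkn1c followed at 6.34 ± 1.00 and 6.38 ± 0.814 TPM, and Peg3 at 3.79 ± 2.28 and 3.17 ± 0.548 TPM. The next in the CCl4 livers were H19 at 2.81 ± 2.45 TPM and Grb10 at 1.60 ± 0.435 TPM. The lower end of the order was held by Plagl1 (0.488 ± 0.152), Igf2 (0.403 ± 0.147), Meg3 (0.121 ± 0.0684) and Dlk1 (0.0504 ± 0.0456 TPM), with Zim1 at 0. Within the CCl4 libraries, the ranges of neighbours in this order did not overlap between Igf2r and Cdkn1c, Cdkn1c and Peg3, Grb10 and Plagl1, or Igf2 and Meg3, while the other neighbouring pairs overlapped. With the length of the longest transcript in place of all exons, Cdkn1c and Peg3 overlapped as well. With givinostat, H19 stood at 0.548 ± 0.108 TPM (n = 2), below Grb10 at 1.62 ± 0.176 TPM and within the range of Igf2 and Plagl1.

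**Figure D1:**
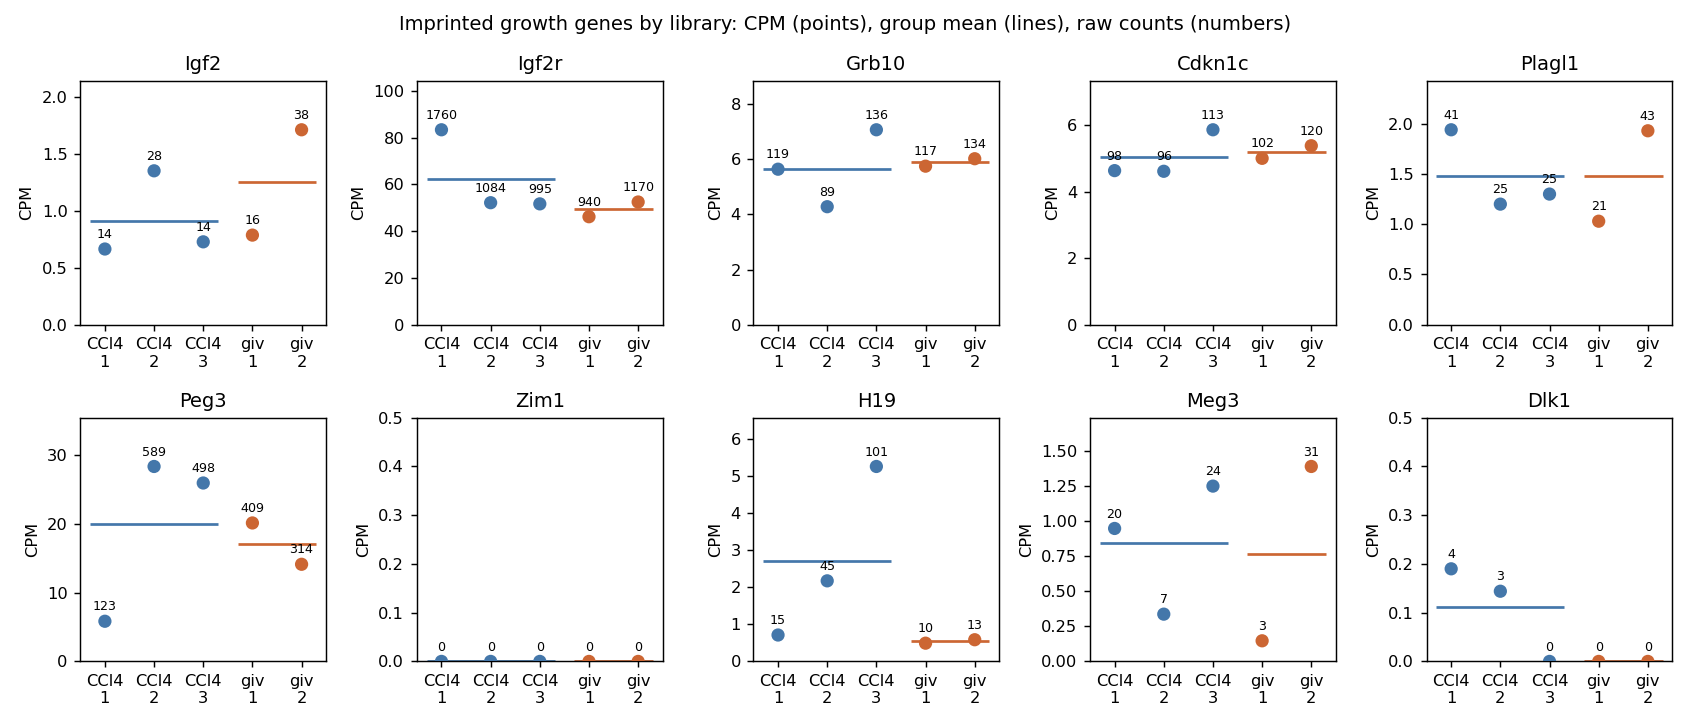
Each panel plots 1 member in CPM (y axis, linear from 0) for the 3 CCl4 libraries (blue) and the 2 CCl4+givinostat libraries (orange, marked giv), with lines at group means and raw counts printed at the points. H19 ranged from 5.25 CPM in CCl4 replicate 3 to 0.711 CPM in CCl4 replicate 1, near the givinostat values of 0.491 and 0.584 CPM.

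Igf2 encodes insulin-like growth factor 2, the main growth factor of the fetus, which in rodents is largely switched off in liver after birth. It was low in all libraries, with 14, 28 and 14 counts in CCl4 replicates 1, 2 and 3 and 16 and 38 counts in givinostat replicates 1 and 2. In CPM this was 0.664, 1.35 and 0.727 with CCl4 and 0.786 and 1.71 with givinostat. CCl4 replicate 2 and givinostat replicate 2 were the high libraries, and the groups overlapped. The log2 fold change (givinostat over CCl4) was 0.45 ± 0.51 (SE; 95% interval -0.72 to 1.62; adjusted p by edgeR = 0.933), and it was -0.22 without givinostat replicate 2. In the annotation, 62.8% of the exonic bases of Igf2 are shared with a gene model of longer span on the same strand. That model has no row among the counted genes. The annotation used for counting is not given, which leaves the assignment of Igf2 reads uncertain. Igf2os, the antisense RNA of the locus, had 0, 2 and 2 counts with CCl4 and 0 in both givinostat libraries.

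Igf2r encodes the cation-independent mannose 6-phosphate receptor, which takes up IGF2 for breakdown in lysosomes and carries lysosomal enzymes. Its level was 83.4, 52.2 and 51.7 CPM in CCl4 replicates 1, 2 and 3 and 46.2 and 52.5 CPM with givinostat. CCl4 replicate 1 was high, and the other 4 libraries lay within a narrow band in which the groups overlapped. The log2 fold change was -0.34 ± 0.23 (SE; 95% interval -0.87 to 0.20; adjusted p by edgeR = 0.856) and was -0.07 without CCl4 replicate 1. Airn, the antisense RNA whose transcription silences the paternal Igf2r copy, starts within the Igf2r gene and shares no exonic base with it in the annotation. Airn had 82, 38 and 59 counts with CCl4 and 45 and 67 with givinostat (log2 fold change -0.16 ± 0.38, SE; adjusted p by edgeR = 0.977), and CCl4 replicate 1 was the highest library for it as for Igf2r.

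Grb10 encodes an adaptor protein that dampens signalling from the insulin and IGF1 receptors. It was at 5.64, 4.28 and 7.07 CPM in the CCl4 livers and at 5.75 and 6.02 CPM with givinostat. Both givinostat values lay inside the CCl4 range, and the log2 fold change was 0.06 ± 0.27 (SE; 95% interval -0.56 to 0.67; adjusted p by edgeR = 0.993), or -0.11 without CCl4 replicate 2. Cdkn1c encodes p57, an inhibitor of cyclin-dependent kinases that holds cells out of division. It was at 4.64, 4.62 and 5.87 CPM in the CCl4 livers and at 5.01 and 5.39 CPM with givinostat, again inside the CCl4 range. The Cdkn1c log2 fold change was 0.04 ± 0.24 (SE; 95% interval -0.51 to 0.60; adjusted p by edgeR = 0.993). That interval leaves room for changes of up to about 0.60 on the log2 scale, so equal levels are not shown. Of the Cdkn1c exonic bases, 30.7% overlap an antisense gene model, and whether counting used strand is not given in the sources used here.

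Plagl1 encodes a zinc finger transcription factor that in mouse regulates several other imprinted genes, Igf2 and H19 among them. It had 41, 25 and 25 counts with CCl4 and 21 and 43 counts with givinostat. In CPM this was 1.94, 1.20 and 1.30 against 1.03 and 1.93, so givinostat replicate 1 was the lowest library and givinostat replicate 2 lay inside the CCl4 range. The log2 fold change was 0.0028 ± 0.42 (SE; 95% interval -0.97 to 0.98; adjusted p by edgeR = 1.00). It ran from -0.52 without givinostat replicate 2 to 0.38 without givinostat replicate 1, so its sign depended on the library left out.

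Peg3 encodes a large zinc finger protein that is expressed from the paternal copy and is known in mouse for effects on growth and maternal behaviour. It had 123, 589 and 498 counts in CCl4 replicates 1, 2 and 3 and 409 and 314 counts with givinostat. In CPM this was 5.83, 28.3 and 25.9 with CCl4 and 20.1 and 14.1 with givinostat, with the givinostat values between CCl4 replicate 1 and the other CCl4 libraries. The highest CCl4 value was 4.86 times the lowest. The log2 fold change was -0.23 ± 0.55 (SE; 95% interval -1.49 to 1.03; adjusted p by edgeR = 0.978). Without CCl4 replicate 1 it was -0.67 ± 0.19 (SE; adjusted p by edgeR = 0.12), and without CCl4 replicate 2 it was 0.11. The summed CPM of 5 Kupffer cell markers, all of them tested, was also lowest in CCl4 replicate 1, at 336. It was 715 and 513 in CCl4 replicates 2 and 3 and 382 and 470 with givinostat. Clec4f, Vsig4 and Cd5l shared that low library, while Marco and Timd4 were lowest in givinostat replicate 1. Monocyte and macrophage markers also summed lowest in CCl4 replicate 1, at 212 CPM, close to 216 CPM in givinostat replicate 2. The part of these cells in the Peg3 values was not tested. Zim1, the maternally expressed zinc finger gene beside Peg3, had 0 counts in every library, which allows at most 0.135 to 0.156 CPM in a library (3 counts) and 0.0289 CPM over all 5.

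The promoter windows of Peg3 and Meg3, from 250 bases before to 50 after a start, are shown because each holds the cAMP response element TGACGTCA. No window of another member holds this site. The motif was picked after the windows had been read, it was searched on both strands (it is its own reverse complement), and it is in capitals. Both are from RefSeq on GRCm38.p6, Peg3 at chr7:6730370-6730669 on the minus strand and Meg3 at chr12:109540746-109541045 on the plus strand.
Peg3: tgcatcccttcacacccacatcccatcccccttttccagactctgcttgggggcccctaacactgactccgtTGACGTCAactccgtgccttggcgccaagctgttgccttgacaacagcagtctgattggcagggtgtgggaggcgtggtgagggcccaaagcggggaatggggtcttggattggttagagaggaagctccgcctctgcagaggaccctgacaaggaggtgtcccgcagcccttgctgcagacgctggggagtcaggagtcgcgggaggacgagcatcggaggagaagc
Meg3: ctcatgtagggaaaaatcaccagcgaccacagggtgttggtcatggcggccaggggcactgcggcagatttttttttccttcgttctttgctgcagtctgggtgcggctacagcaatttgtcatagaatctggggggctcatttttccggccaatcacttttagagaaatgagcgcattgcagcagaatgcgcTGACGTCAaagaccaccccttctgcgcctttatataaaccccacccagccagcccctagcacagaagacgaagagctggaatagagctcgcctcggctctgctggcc
The windows cover 8 of the 10 members, with more than 1 window for Igf2, Grb10 and Meg3, and H19 and Cdkn1c are not among them. The motif occurs in 2 of these 13 windows and in 588 of 32851 windows (1.79%) in the whole table. Because the motif was picked from these windows, the figures are no test of enrichment. The motif begins 178 bases before the start in Peg3 and 57 bases before it in Meg3. A GC box (GGGCGG, either strand) is in 6 of the 13 windows against 35.7% of all windows. An E-box (CACGTG) is in 2 of the 13, those of Igf2r and Plagl1, against 7.15% of all windows, a CCAAT box (CCAAT, either strand) in 3 against 37.4%, and TATAAA in 1, that of Meg3, against 13.6%. GC content ran from 49.7% in an Igf2 window to 80.0% in a Grb10 window, with a median of 52.7% over all windows. These matches describe the letters of the windows only. Peg3 and Meg3 differed in the order of the libraries, since CCl4 replicate 2 was the highest of the CCl4 livers for Peg3 and the lowest of them for Meg3.

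H19 is a long non-coding RNA that is abundant in fetal liver, falls after birth and is known to be expressed again in regenerating and cancerous liver. It had 15, 45 and 101 counts in CCl4 replicates 1, 2 and 3 and 10 and 13 counts in givinostat replicates 1 and 2. Scaled for depth, it was at 0.711, 2.17 and 5.25 CPM in the CCl4 livers and at 0.491 and 0.584 CPM with givinostat. The groups did not overlap, but CCl4 replicate 1 lay close to the givinostat libraries and CCl4 replicate 3 was 7.38 times higher than CCl4 replicate 1. Counting error alone gives 95% Poisson intervals of 8.40 to 24.7 counts for CCl4 replicate 1, 82.3 to 123 for CCl4 replicate 3, and 4.80 to 18.4 and 6.92 to 22.2 for the givinostat libraries. The CCl4 livers thus differed by more than counting error, while the interval of CCl4 replicate 1 overlapped those of both givinostat libraries.

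The fitted log2 fold change of H19 was -2.31 ± 0.80 (SE; 95% interval -4.15 to -0.47), with an unadjusted p of 0.0198 and an adjusted p of 0.525 by edgeR's quasi-likelihood test. DESeq2 gave -2.33 with an adjusted p of 0.115. By the exact two-sided permutation test on log2 CPM over the 10 assignments of the libraries, p was 0.2, and a design of this size cannot reach below 0.1. The sign held with each library left out. Without CCl4 replicate 1 the log2 fold change was -2.76 ± 0.52 (SE) and passed edgeR's threshold (adjusted p = 0.0318), in a fit that called 0.862% of all genes lower and 0.885% higher. Without CCl4 replicate 3 it was -1.40 ± 0.62 (SE; adjusted p by edgeR = 0.707), so CCl4 replicate 3 carried much of the size and CCl4 replicate 1 much of the spread.

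Marker lists of several cell types were set beside H19. Median log2 fold changes were -0.59 for T and B lymphocyte, -0.50 for vascular smooth muscle and -0.29 for vascular endothelial markers. They were -0.25 for sinusoidal endothelial, -0.23 for Kupffer, 0.00 for hepatocyte and 0.00 for monocyte and macrophage markers, against -0.02 over all genes. The list for pancreas, muscle and fat, with 1 gene tested, was at 0.23. The 7 tested mesothelial markers had a median log2 fold change of -3.03, all 7 lower, and summed to 17.6, 7.94 and 20.5 CPM in CCl4 replicates 1, 2 and 3 and to 3.00 and 2.24 CPM with givinostat. Msln, the mesothelin gene, was at 0 counts in givinostat replicate 1 and 1 count in givinostat replicate 2. Mesothelial markers and H19 shared the low givinostat values but not the order of the CCl4 livers, since CCl4 replicate 1 was high for the markers and low for H19. Of the 11 activated stellate cell and fibroblast markers, 10 had a lower fitted value (median -0.50), where 53.8% of all genes were lower. They summed to 151, 154 and 262 CPM in the CCl4 livers and to 156 and 117 CPM with givinostat. CCl4 replicate 3 was the highest library, as for H19. Most of that sum is Col1a1, Col1a2 and Col3a1. These, Timp1, Lox and Dpt were highest in CCl4 replicate 3. Acta2, Tagln and Thy1 were highest in CCl4 replicate 2, Cd34 in CCl4 replicate 1 and Pdgfra with givinostat. The 8 cholangiocyte markers summed to 159, 182 and 231 CPM in the CCl4 livers, in the order of H19, and to 154 and 123 CPM with givinostat. That sum is mostly Spp1 (108, 131 and 179 CPM with CCl4, 106 and 69.8 CPM with givinostat), also listed as a macrophage marker. Of the other cholangiocyte markers, only Muc1 had the same order in the CCl4 livers (1.47, 1.83 and 2.60 CPM). Muc1 was at 2.36 and 2.92 CPM with givinostat. Quiescent stellate cell markers summed to 222 to 235 CPM with CCl4 and to 242 and 255 CPM with givinostat. DESeq2 called 5 of the mesothelial markers and 1 of the activated stellate and fibroblast markers lower, where it called 0.529% of all genes lower. EdgeR called 0 of either list with all libraries. Without CCl4 replicate 1, and also without the filter on low counts, edgeR called the mesothelial genes Msln, Upk3b and Upk1b lower. The fit without CCl4 replicate 1 called 0.862% of all genes lower. The part of these cells in the H19 values was not tested.

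Meg3 is a long non-coding RNA of the Dlk1 domain that has been studied as a growth suppressor and is reduced in many tumours. It had 20, 7 and 24 counts with CCl4 and 3 and 31 counts with givinostat. The lowest and the highest of the 5 libraries were the givinostat pair, at 0.147 and 1.39 CPM, a ratio of 9.44 between them. The log2 fold change was -0.11 ± 0.82 (SE; 95% interval -2.0 to 1.78; adjusted p by edgeR = 0.995), and it was -2.46 without givinostat replicate 2 and 0.72 without givinostat replicate 1. Sinusoidal endothelial markers also differed between the givinostat libraries, with sums of 110 and 257 CPM, against 160, 262 and 225 CPM in CCl4 replicates 1, 2 and 3. Vascular endothelial markers summed to 32.5 and 67.5 CPM with givinostat and to 51.7, 86.0 and 69.8 CPM with CCl4. For both lists givinostat replicate 1 was the lowest library, as for Meg3. CCl4 replicate 2 was instead the highest library for both lists and the lowest CCl4 library for Meg3, and their part in the Meg3 values was not tested. Rian, the next non-coding RNA along the domain, named after its values were seen, had 11, 6 and 18 counts with CCl4 and 5 and 9 with givinostat (log2 fold change -0.81 ± 0.65, SE; adjusted p by edgeR = 0.875).

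Dlk1 encodes a membrane protein related to Notch ligands that marks fetal hepatoblasts and is known as an inhibitor of fat cell formation. It had 4, 3 and 0 counts in CCl4 replicates 1, 2 and 3 and 0 counts in both givinostat libraries, too few for edgeR's filter on low counts. DESeq2, run without that filter, gave a log2 fold change of -3.70 (unadjusted p = 0.185). The permutation test on log2 CPM gave p = 0.4. Pooled, the counts were 7 against 0. With 3 counts, the limit used here for 0, in place of the givinostat count, the pooled depth-scaled level would be 1.63-fold lower with givinostat. That figure takes the 7 counts as exact. With the counting error of both groups, the exact 95% interval of the ratio begins at 1.01. Neither figure covers variation between animals, so a difference is not shown. The groups were not apart, since CCl4 replicate 3 also held 0 counts.

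**Figure D2:**
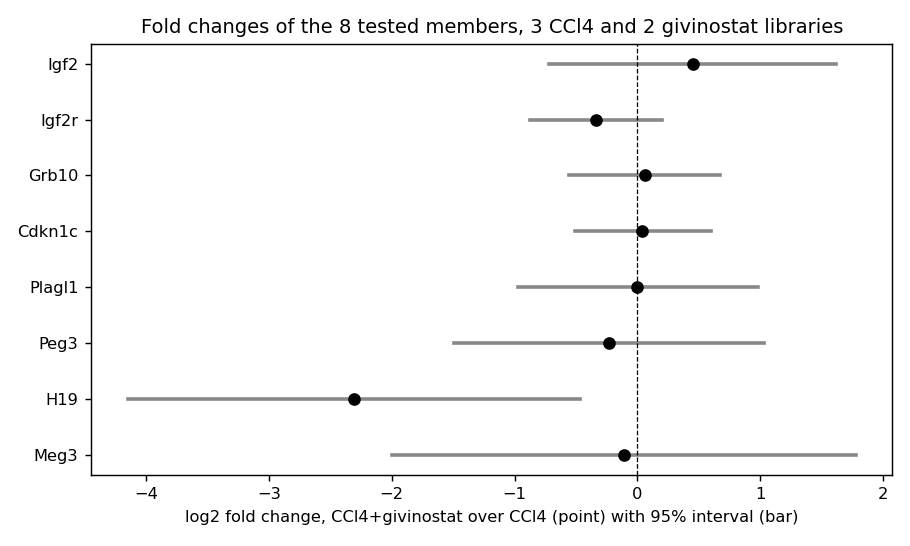
Points give the log2 fold change of each tested member (y axis) between 2 CCl4+givinostat and 3 CCl4 libraries, and bars its 95% interval from edgeR's quasi-likelihood fit. The H19 interval runs from -4.15 to -0.47, and those of the other 7 members include 0.

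As a set the members had no common direction. EdgeR's test with Benjamini-Hochberg adjustment over 13590 genes called 0 of the 8 tested members higher and 0 lower, where it called 0.00736% of all genes higher and 0% lower. With an unadjusted p below 0.05, 1 member was lower and 0 were higher, against 3.93% and 3.52% of all genes. DESeq2 called 0 members in each direction and 0.506% of genes higher and 0.529% lower. The groups of 1 tested member, H19, did not overlap with givinostat lower, as in 11.7% of all genes. Fitted values were lower for 4 members and higher for 4, where 53.8% of all genes were lower, and the median log2 fold change was -0.05, against -0.02 over all genes. Igf2 and H19, which share enhancers and are read from opposite parental copies, had fitted changes of 0.45 ± 0.51 and -2.31 ± 0.80. With adjusted p by edgeR of 0.933 and 0.525 (errors are SE), opposite changes of the pair are not shown.

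**Figure D3:**
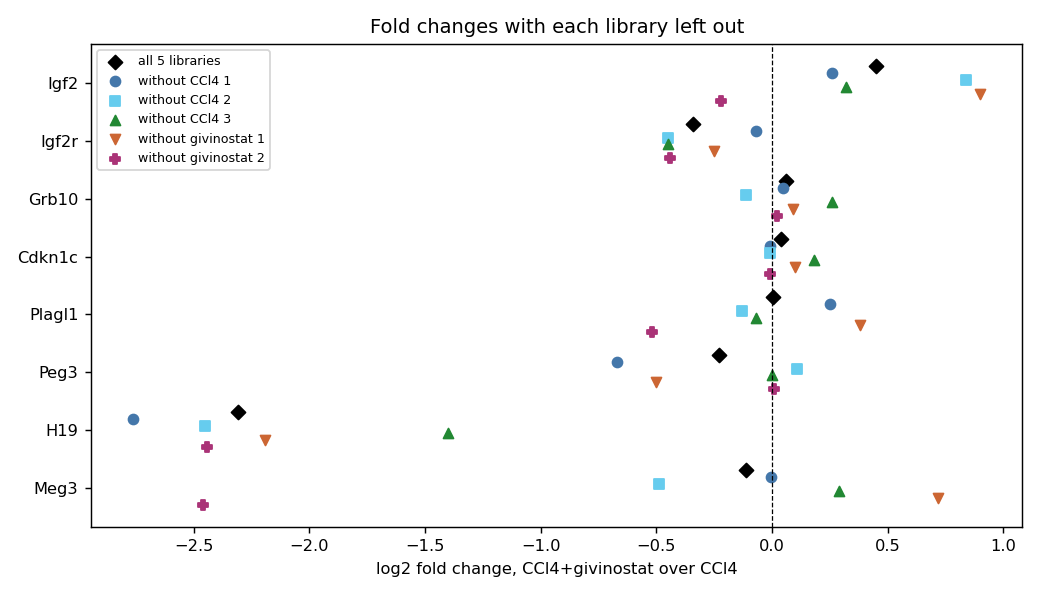
Log2 fold changes (x axis) of the tested members with all 5 libraries (diamonds) and with each library left out. H19 stayed between -2.76 and -1.40, Igf2r stayed below 0, and Meg3 ranged from -2.46 to 0.72.

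Beyond the members, 79 other imprinted genes were found in the tables, of which 50 were tested and 14 had 0 counts in every library. EdgeR called 0 of the 50 in each direction, and DESeq2 also called 0. At an unadjusted p under 0.05 by edgeR, 2 were higher and 1 lower, against 3.52% and 3.93% of all genes. Fitted values were lower for 25 and higher for 25, with a median log2 fold change of 0.00, and the groups did not overlap for 7 on the higher and 6 on the lower side, against 11.7% of all genes on each side. The smallest p-values belonged to Ampd3, Dhcr7, Tnfrsf23 and Copg2. Ampd3, an AMP deaminase, was at 3.55, 2.84 and 4.0 CPM in the CCl4 livers and 6.04 and 5.70 CPM with givinostat (log2 fold change 0.76 ± 0.25, SE; adjusted p by edgeR = 0.517). Dhcr7, the last enzyme of cholesterol synthesis and imprinted in mouse placenta, was at 29.1, 53.8 and 53.8 CPM in the CCl4 livers and 27.4 and 25.1 CPM with givinostat. Its log2 fold change was -0.80 ± 0.27 (SE; adjusted p by edgeR = 0.521). Without CCl4 replicate 1, edgeR called Dhcr7 lower (-1.04, adjusted p = 0.00828), as it did 0.862% of all genes. Tnfrsf23, a decoy receptor of the TNF receptor family, and Copg2, a coatomer subunit, had log2 fold changes of 0.86 ± 0.35 and -0.37 ± 0.17 (SE; adjusted p by edgeR = 0.634 and 0.693). Kcnq1ot1, the antisense RNA that silences the paternal Cdkn1c domain, named after its values were seen, had 90, 111 and 65 counts with CCl4 and 95 and 101 with givinostat.

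IGF axis genes cover the ligands, receptors, binding proteins and substrates of IGF signalling. Of 22 listed, 18 were tested and edgeR called 0 in each direction. At an unadjusted p under 0.05 by edgeR, 3 were lower and 0 higher, against 3.93% and 3.52% of all genes. Igfbp5, an IGF-binding protein, was at 5.26, 4.23 and 5.77 CPM in the CCl4 livers and at 1.23 and 1.80 CPM with givinostat. The groups of Igfbp5 lay well apart, with a log2 fold change of -1.74 ± 0.32 (SE; adjusted p by edgeR = 0.180). DESeq2 called Igfbp5 lower (adjusted p = 0.00106), as it did 0.529% of all genes. Igfbp6, another binding protein with a preference for IGF2, had 50, 11 and 20 counts with CCl4 and 11 and 3 counts with givinostat (-1.97 ± 0.80, SE; adjusted p by edgeR = 0.643). Igfbp7 and Igfbp1 had log2 fold changes of -0.42 ± 0.18 and 0.79 ± 0.36 (SE; adjusted p by edgeR = 0.655 and 0.693). Igfbp1, made by hepatocytes and raised by fasting, was at 912 CPM in CCl4 replicate 1 against 345 and 491 CPM in CCl4 replicates 2 and 3 and at 883 and 1132 CPM with givinostat. Without CCl4 replicate 1, edgeR called Igfbp1 (1.27, adjusted p = 0.0184) and Irs2 (1.75, adjusted p = 0.0206) higher and Igfbp5 (-1.72, adjusted p = 0.0413) lower. That fit called 0.885% of all genes higher and 0.862% lower. Irs2, an insulin receptor substrate, was at 30.5, 3.18 and 6.29 CPM in the CCl4 livers and 14.1 and 17.6 CPM with givinostat.

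**Figure D4:**
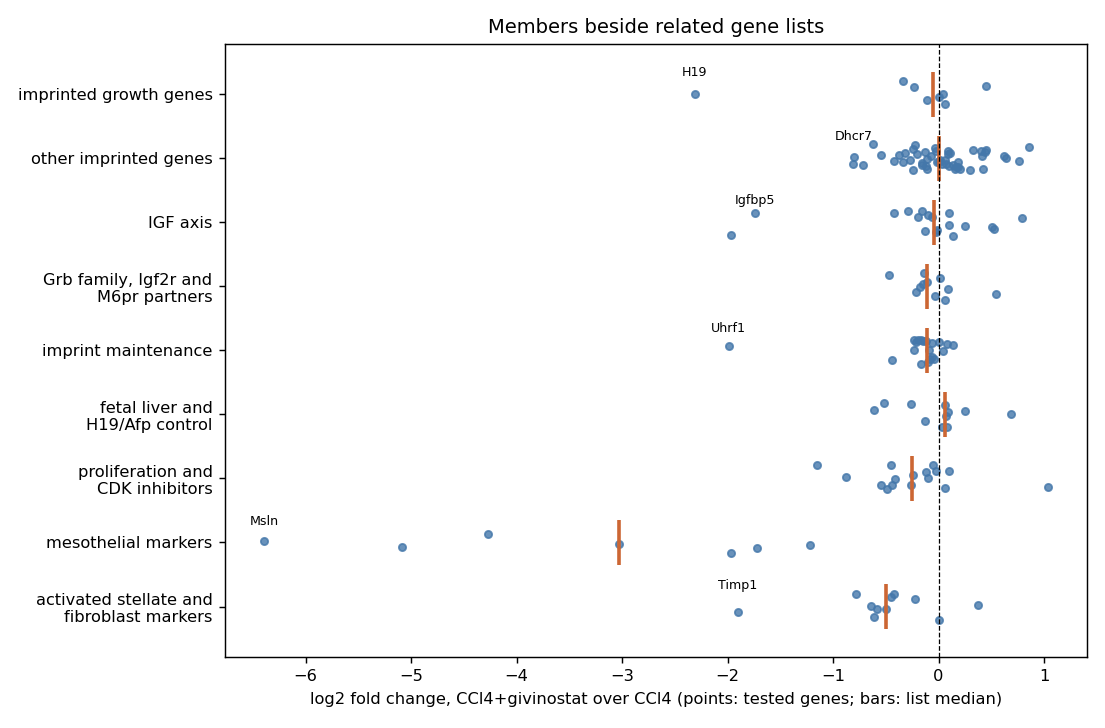
Each point is the log2 fold change of 1 tested gene (x axis) and each bar the median of its list (y axis). The mesothelial median stands at -3.03, the activated stellate and fibroblast median at -0.50, and the medians of the imprinted growth genes and of the other imprinted genes at -0.05 and 0.00.

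All 11 partners of Grb10 and Igf2r were tested, edgeR and DESeq2 each called 0, and the median log2 fold change was -0.11. With an unadjusted p below 0.05, edgeR put 1 on the higher and 0 on the lower side, against 3.52% and 3.93% of all genes. Grb7, an adaptor of the same family as Grb10, was at 49.3, 49.8 and 53.8 CPM in the CCl4 livers and at 77.6 and 70.4 CPM with givinostat (0.54 ± 0.14, SE; adjusted p by edgeR = 0.372). The next smallest p-values belonged to the adaptor Grb2 (-0.21), the urokinase gene Plau (-0.47) and M6pr (-0.18), the smaller mannose 6-phosphate receptor.

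The imprint maintenance list was mixed, since beside genes that keep imprints it held genes that set or remove DNA methylation, such as Dnmt3b and Tet3. Of its 20 tested genes, 17 were fitted lower and 3 higher, where 53.8% of all genes were lower. The median of the list was -0.11 on the log2 scale. Among the 17, Ehmt2 (-0.00 ± 0.14), Ezh2 (-0.04 ± 0.22), Ctcf (-0.06 ± 0.16) and Tet3 (-0.06 ± 0.19, SE) lay near 0. EdgeR called 0 in each direction. With an unadjusted p below 0.05 there was 1 gene on the lower and 0 on the higher side, against 3.93% and 3.52% of all genes. The gene on the lower side was Uhrf1, which brings the DNA methyltransferase Dnmt1 to newly copied DNA. Uhrf1 had 40, 43 and 43 counts with CCl4 and 11 in each givinostat library, a log2 fold change of -1.99 ± 0.39 (SE; adjusted p by edgeR = 0.210). DESeq2 called Uhrf1 lower (adjusted p = 0.0242), as it did 0.529% of all genes. Dnmt1, Mbd3, which is a subunit of the NuRD complex, and Arid4a had log2 fold changes of -0.44 ± 0.22, -0.23 ± 0.15 and -0.23 ± 0.17 (SE; adjusted p by edgeR = 0.758 to 0.856). Zfp57 and Trim28, which protect imprints during early development and were named after their values were seen, had log2 fold changes of -0.15 and -0.17.

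Uhrf1 is also a gene of dividing cells. Of 16 genes of proliferation and cell-cycle inhibition, 13 had a lower fitted value (median -0.25), where 53.8% of all genes were lower. The list mixes genes of division with inhibitors of it. Its inhibitors were among the lower genes, each by less than its SE. They were Cdkn1a (-0.05 ± 0.22), Cdkn1b (-0.10 ± 0.18), Cdkn2a (-0.49 ± 0.90), Cdkn2b (-0.24 ± 0.64) and Cdkn2c (-0.02 ± 0.21, SE). Ccnb1, Cdk1 (0.10 ± 0.36) and Ccne2 (0.06 ± 0.56, SE) were higher. The part of cell division in the Uhrf1 values was not tested. EdgeR and DESeq2 called 0 of the 16. At an unadjusted p under 0.05 by edgeR, 2 were lower and 1 higher, against 3.93% and 3.52% of all genes. Mcm5, a replication licensing factor, had 42, 72 and 51 counts with CCl4 and 21 and 31 with givinostat (-1.15 ± 0.38, SE; adjusted p by edgeR = 0.505). Cyclin D1 (Ccnd1) and cyclin B1 (Ccnb1) had log2 fold changes in opposite directions, -0.88 ± 0.31 and 1.04 ± 0.39 (SE; adjusted p by edgeR = 0.525 and 0.576), and Mcm2 was at -0.45.

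Of 15 genes that share fetal expression or postnatal silencing with H19, or regulate it, 11 were tested, edgeR called 0 with 0 at an unadjusted p under 0.05 in either direction, DESeq2 called 0, and the median log2 fold change was 0.06. Afp, the fetal albumin-like protein gene, was at 3.74, 5.92 and 4.36 CPM in the CCl4 livers and at 6.49 and 4.67 CPM with givinostat (0.25 ± 0.29, SE; adjusted p by edgeR = 0.933). Zbtb20, a repressor of Afp in mouse liver, was at 4.22, 3.03 and 2.75 CPM in the CCl4 livers and 2.26 and 2.11 CPM with givinostat (-0.61 ± 0.31, SE; adjusted p by edgeR = 0.770). Zfhx3 and Igf2bp3, an RNA-binding protein of Igf2 transcripts, had log2 fold changes of -0.26 and 0.69. Zhx2, which represses both Afp and H19 in adult mouse liver and was named after its values were seen, was at 17.4, 9.33 and 8.68 CPM in CCl4 replicates 1, 2 and 3 and at 11.5 and 13.4 CPM with givinostat (0.08 ± 0.31, SE; adjusted p by edgeR = 0.990).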

How the data were processed

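Total RNA from frozen liver was prepared, per the labels' protocols, with a TruSeq RNA kit from Illumina. The authors deposited raw counts, 1 symbol a line and 1 file a library. Bowtie 0.12.2 and the builds mm8 and mm10 are named, with no role, in the submitters' processing notes. For the counting program, annotation and strand, nothing is given in the sources used here. Rows with a calendar date as their symbol (26 a library, 0.144 to 0.169% of counts) were left out. The 5 libraries differed pairwise by more than sampling noise. The series design describes the samples as mice, and replicate numbers come from the titles.

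The fit was made with edgeR 4.0.16 in R 4.3.3: filterByExpr defaults (13590 genes kept), TMM scaling and a quasi-likelihood test with treatment as the only term (3 residual degrees of freedom), with calls at an adjusted p of 0.05 (Benjamini-Hochberg). Standard errors were derived from the log2 fold change and the F statistic. TPM used GENCODE M21 exon lengths, matched by symbol for 97.8% of rows. Poisson intervals and the limit of 3 counts that a count of 0 allows cover counting error only. The procedure was tested on simulated counts. Alternatives were RLE scaling, other filters, a replicate block, each library left out, DESeq2 1.42.0 and an adjusted p of 0.1. The members and lists were chosen with earlier results of these data known. Genes named are the members, RNAs overlapping them, and in each related list (marker lists aside) any gene edgeR called with all libraries and up to 4 with the smallest p-values. Marker genes and others named beyond this were chosen after their values were seen. Patterns of genes were not compared by correlation, since 5 libraries are too few.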

Additional observations from a re-analysis of the deposited data

How the results depend on the processing

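The count of members called lower was 0 to 1 with each library left out, the 1 being H19 without CCl4 replicate 1. The median log2 fold change of the members was -0.33 to 0.09 over these settings. Over all alternatives H19 (-2.76 to -1.30) and Igf2r (-0.45 to -0.07) kept their sign. H19 was at -1.30 with the replicate number as a block (edgeR adjusted p = 0.462). Fold changes of the other tested members, none of which passed in any setting, changed sign. Leaving out libraries gave Igf2 -0.22 to 0.90, Meg3 -2.46 to 0.72, Peg3 -0.67 to 0.11, Cdkn1c -0.01 to 0.18, Grb10 -0.11 to 0.26 and Plagl1 -0.52 to 0.38. Under the replicate block Meg3 was at 0.04, Peg3 at 0.35 and Plagl1 at -0.10, and Plagl1 was at -0.00047 with the stricter filter, which removed Meg3. The block called 0 members and 1 gene lower each in the IGF axis (Igfbp5), imprint maintenance (Uhrf1) and proliferation (Ccnd1) lists. The block also called 5 mesothelial markers lower and Cyp2e1 higher. That fit left only 1 residual degree of freedom, and its share of calls over all genes was not worked out. Little weight can be put on its calls. The labels do not say that a number pairs libraries, so numbers were not taken as pairs. Deviations of same-numbered libraries had r = -0.15 and -0.08, but the 2 givinostat libraries mirror each other around their mean, so these are not independent and settle nothing about pairing. DESeq2 called 1 gene lower in the IGF axis list and 1 in the imprint maintenance list, where it called 0.529% of all genes lower. With a CCl4 library left out, 0 to 1 other imprinted genes, and in the IGF axis 0 to 2 genes higher and 0 to 1 lower, were called. All these calls came without CCl4 replicate 1, in a fit that called 0.885% of all genes higher and 0.862% lower. The cause of these changes was not tested. Leaving out a givinostat library assumes that the remaining one varies like the CCl4 group. Igf2, Meg3, Plagl1 and H19 had at most 101 counts in a library, and Dlk1 and Zim1 were below what the depth can compare.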
